A study of Mus musculus with 12 samples.

Results

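The protein tyrosine phosphatases other than SHP2 and SHP1 were examined in hippocampal slices of mice that carry a mutant SHP2. Genes were taken whose single symbol is Ptpn with a digit, without Ptpn11 (SHP2) and Ptpn6 (SHP1), or Ptpr with a letter and an optional digit or letter. This gave 35 genes with 1 transcript cluster each, out of 41345 clusters on the array and 22180 genes that have a cluster with 1 symbol. Ptprt was not analysed here, and 1 cluster that shares the symbol Ptprr with another gene was left out.

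The study profiled hippocampal slices of 3 control and 3 Ptpn11D61Y mice, aged 8 to 11 weeks, on Affymetrix Mouse Gene 2.0 ST arrays. Ptpn11D61Y mice were heterozygous for the conditional allele Ptpn11floxedD61Y/WT and carried Emx1IREScre. The paper describes its cre expression as selective for forebrain astrocytes and excitatory neurons. Recombination in each cell type of the slice was not measured here. The labels describe control mice as having the conditional allele without Emx1IREScre, whereas the paper describes them as Ptpn11 wild type with Emx1IREScre; the groups are called control here. Slices of 350 µm received DMSO (basal, B) or 2.5 mM 4AP, a blocker of potassium channels, with 50 µM bicuculline, a GABA-A receptor antagonist, in DMSO (stimulated, S) for 10 min, and RNA was taken 3 h later. This gave 4 groups of 3 arrays, and the B and S arrays of 1 genotype that carry the same animal number in the labels were taken as 1 animal. The comparisons ask whether the D61Y allele altered transcript levels at rest (Ptpn11D61Y B vs. control B) or after activity (Ptpn11D61Y S vs. control S), whether network activity altered them in each genotype (S vs. B), and whether that response differed between genotypes (the interaction).

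Protein tyrosine phosphatases remove phosphate from tyrosine residues and so counteract tyrosine kinases. The receptor type (Ptpr) spans the membrane and often carries a pair of intracellular phosphatase domains, of which the second is usually inactive, while the cytosolic type (Ptpn) joins 1 phosphatase domain to domains that direct it to membranes, vesicles or the cytoskeleton. In the brain, receptors of the LAR type organise synapses through ligands on the partner neuron, and STEP, the product of Ptpn5, acts on NMDA receptor signaling.

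Promoter sequence was looked at because CREB drives much activity-dependent transcription in neurons through the cAMP response element (CRE), TGACGTCA, which reads the same on both strands. RefSeq promoter windows (250 bases before to 50 bases after a start, build GRCm38.p6) were matched for 29 of the 35 genes. The CRE was found in windows of 2 of these 29 genes, Ptprs and Ptpru (6.90%), against 2.03% of all 27025 genes with a window. Both windows are shown 5′ to 3′ on the strand of the gene, with the CRE in capitals.
Ptprs, chr17:56476431-56476730, minus strand: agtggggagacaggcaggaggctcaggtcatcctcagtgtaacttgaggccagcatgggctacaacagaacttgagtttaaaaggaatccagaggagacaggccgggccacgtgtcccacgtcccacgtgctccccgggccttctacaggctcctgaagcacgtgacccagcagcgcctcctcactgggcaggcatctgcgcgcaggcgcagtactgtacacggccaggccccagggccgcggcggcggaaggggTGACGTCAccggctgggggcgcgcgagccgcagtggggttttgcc
Ptpru, chr4:131838229-131838528, minus strand: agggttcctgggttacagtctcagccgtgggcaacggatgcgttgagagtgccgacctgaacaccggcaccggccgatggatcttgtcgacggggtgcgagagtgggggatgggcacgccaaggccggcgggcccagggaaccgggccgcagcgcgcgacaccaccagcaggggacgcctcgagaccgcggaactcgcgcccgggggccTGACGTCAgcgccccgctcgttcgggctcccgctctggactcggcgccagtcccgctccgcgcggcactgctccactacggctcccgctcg
Counted from the start of the transcript, the first base of the CRE is at position 6 in Ptprs and at -41 in Ptpru. The shorter motif TGACG, the core of the CRE and so contained in it, searched on both strands, was in windows of 14 of the 29 genes (48.3%) and of 23% of all genes. The AP-1 motif TGANTCA, searched on both strands, was in windows of Ptpre and Ptprh (6.90%, against 8.97% of all genes). A gene can have several windows, and the 29 genes had 43 where all 27025 genes had 32851. Counted by window, the CRE was in 2 of 43 against 1.79% of all windows. TGACG was in 16 of 43 against 20.8%, and the AP-1 motif in 2 of 43 against 7.81%. A match of letters is a description and not a site of binding.

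The spread between arrays sets what can be seen. Signals were made by the authors with PLIER on a linear scale and were taken to log2 with a floor of 1, which no value of the 35 genes lay under. The mean log2 signal was 3.07 to 11.10, a range that also depends on the probes of each cluster, and 5 genes had a mean under 5 and are called dim here: Ptpn7, Ptpn20, Ptpn22, Ptprc and Ptprq. Markers of excitatory neurons, interneurons and astrocytes had a mean log2 signal of at least 5 in every case, and 3 of 5 lymphocyte markers were dim. Array medians still differed from 36.5 to 58.1 on the linear scale. In bulk slices, fewer cells of a type and less RNA per cell cannot be told apart.

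The 4 arrays of replicate 1 stood apart from the other 8. Averaged over groups, 29 of the 35 genes were lower in replicate 1 and 6 were higher, with a median difference of -0.40 on the log2 scale, against -0.17 over all genes. In 12 genes all 4 arrays of replicate 1 lay below the other 8 (34.3%), a pattern seen in 22.2% of all genes, and no gene had all 4 above (0%, against 1.04% of all genes). The 12 were Ptpn4, Ptpn5, Ptpn12, Ptpn14, Ptpn23, Ptpra, Ptprf, Ptprj, Ptprn, Ptprn2, Ptprs and Ptprz1. The difference was over 1 log2 unit in 4 of them, at -1.37 in Ptprn, -1.31 in Ptpn12, -1.23 in Ptpn23 and -1.11 in Ptprs. In 30 of 35 genes the lowest of the 12 values was in an array of replicate 1. The summed signal of the excitatory neuron markers was also lower there, at 12.87 to 13.28 on the log2 scale against 13.37 to 14.34 in the other 8 arrays. The astrocyte markers were lower there too, at 11.89 to 12.19 against 12.87 to 13.23, and the interneuron markers were at 10.68 to 11.13 against 10.98 to 12.45. Endothelial markers were also lower, at 9.57 to 10.04 against 10.11 to 11.18. The ranges overlapped for microglia (9.49 to 9.76 against 9.755 to 9.98) and oligodendrocyte precursors (8.51 to 9.28 against 9.21 to 9.79). They also overlapped for oligodendrocytes (11.58 to 11.98 against 11.70 to 12.42), lymphocytes (7.34 to 7.96 against 7.52 to 7.80), choroid plexus and meningeal fibroblasts. The part of these markers in the difference was not tested. The difference enters the standard errors of every comparison below, which were 0.18 to 0.63 for the 35 genes (0.26 to 0.89 for the interaction).

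**Figure D1:**
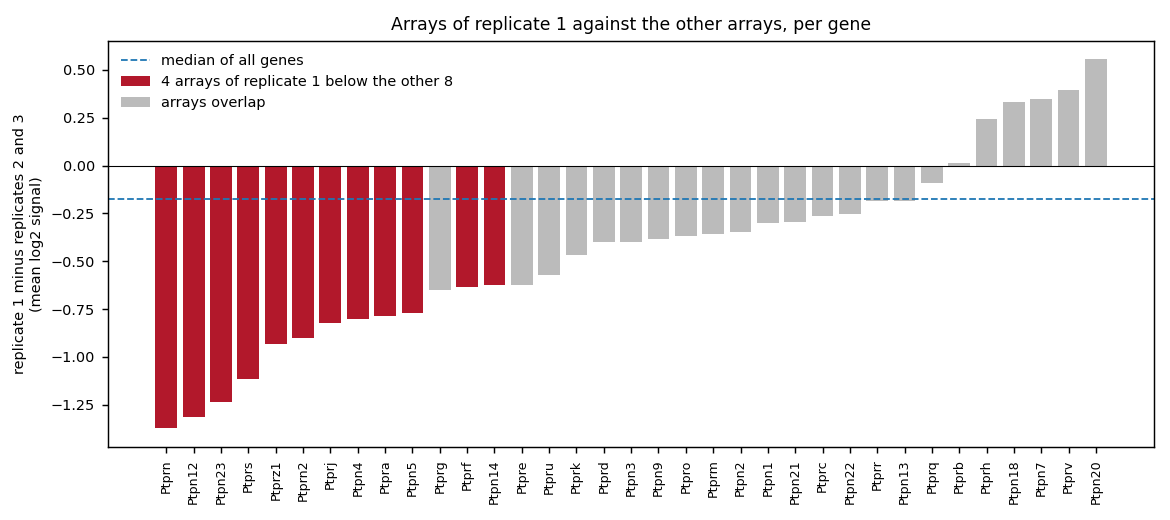
Mean log2 signal of the 4 arrays of replicate 1 minus that of the 8 arrays of replicates 2 and 3, for each of the 35 phosphatase genes, with genes whose 4 replicate 1 arrays all lay below the other 8 in red. The bars run from -1.37 in Ptprn upwards, 29 of 35 lie below 0, and the dashed line is the median of all genes at -0.17.

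Group differences were tested with limma on all 41345 clusters and all 12 arrays. The filter is that of the study, a fold change of at least 1.5 in either direction (0.585 on the log2 scale) with an unadjusted p under 0.05. At rest, 1 of the 35 genes passed it in Ptpn11D61Y B vs. control B, and that gene, Ptprb, was higher; of all 22180 genes 0.816% passed, 0.537% higher. None of the 35 passed in control S vs. control B, where 2.39% of all genes did, in Ptpn11D61Y S vs. Ptpn11D61Y B (0.541% of all genes), in Ptpn11D61Y S vs. control S (1.07%) or in the interaction (0.541%). With 35 genes, these shares amount to less than 1 gene in each comparison. After adjustment by the Benjamini-Hochberg method no cluster of the array stayed under 0.05 in any of the 5 comparisons (0%), and the test of the methods also left 0. At an unadjusted p under 0.05, limma had 1 of the 35 genes, Ptprb, in the first comparison and 0 in the others. The test of the methods had 1 in each of the first 2, Ptpn13 and then Ptprc, both short of the 1.5-fold bound. The number of clusters with an unadjusted p under 0.05 in limma was 610, 1468, 525, 810 and 482 in the order of the comparisons above. Each is a share of the 41345 clusters below 0.05, the share that this cutoff would give with no group differences. With 3 arrays against 3 the smallest exact two-sided permutation p is 0.1, and no permutation test is reported here.

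**Figure D2:**
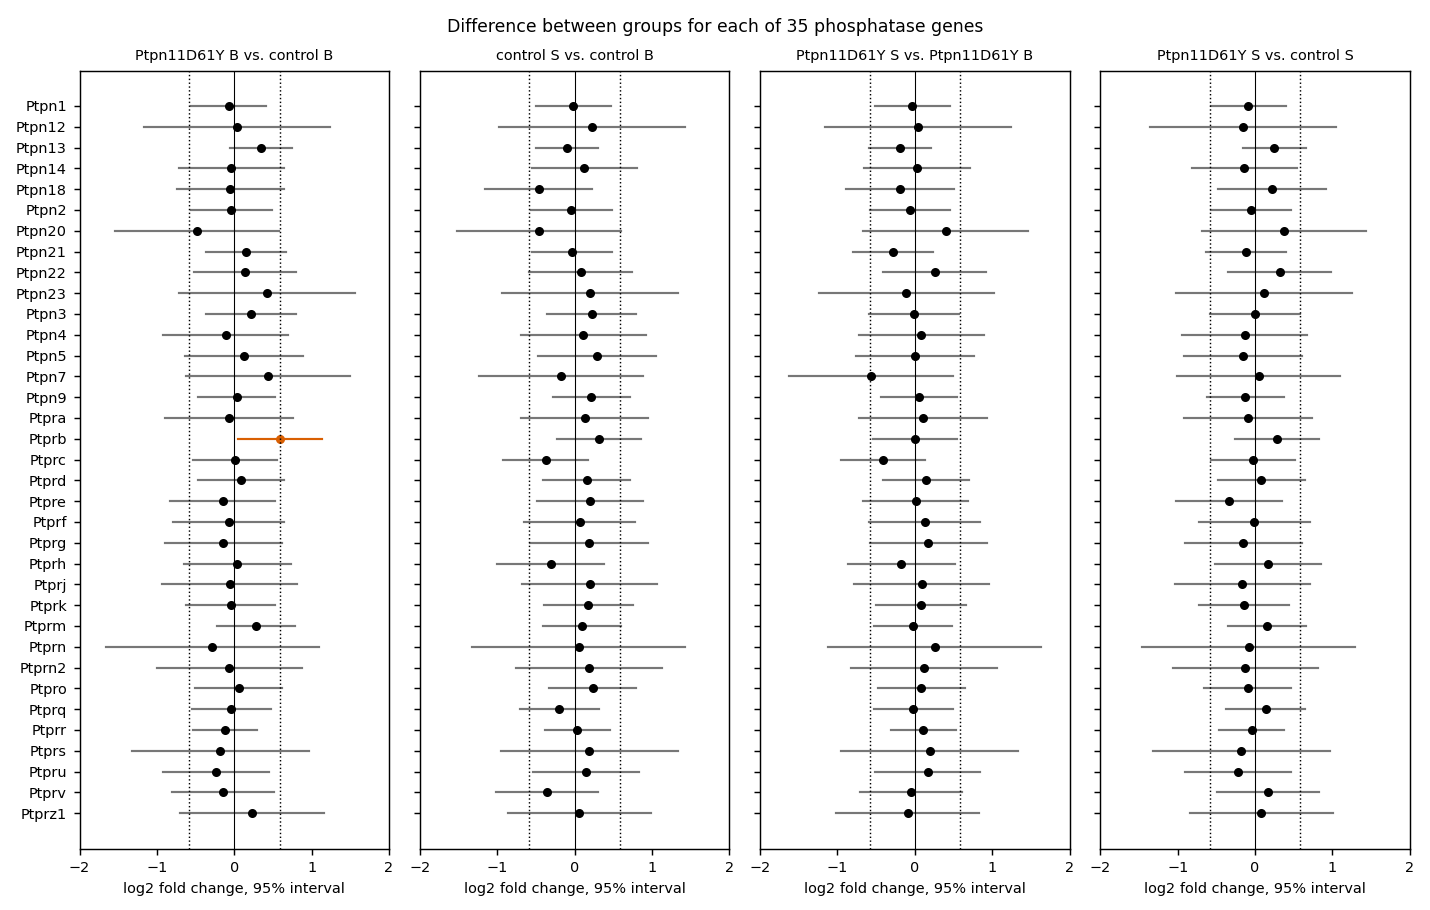
Log2 fold change of each of the 35 phosphatase genes with its 95% interval from limma (n = 3 arrays per group), in 4 comparisons, with the 1.5-fold bounds dotted. Ptprb in Ptpn11D61Y B vs. control B, in orange, is the 1 gene past the filter, and 24 to 27 of the 35 intervals in each panel stay within 2-fold in either direction.

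The intervals say how large a difference these arrays leave room for. The 95% interval lay within 2-fold in either direction for 26 of 35 genes in Ptpn11D61Y B vs. control B, for 24 in control S vs. control B, for 27 in Ptpn11D61Y S vs. Ptpn11D61Y B and for 25 in Ptpn11D61Y S vs. control S. It lay within 1.5-fold for 6, 5, 7 and 4 genes. For the interaction 13 intervals lay within 2-fold and 0 within 1.5-fold. With a block in the fit the standard errors were smaller. The block was the replicate number in the comparisons between genotypes, and the animal in the S vs. B comparisons and the interaction. Then 32, 30, 31, 32 and 27 intervals lay within 2-fold in the 5 comparisons, and 18, 17, 20, 21 and 5 within 1.5-fold.

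As a group the 35 genes lay close to 0. The median log2 fold change was -0.04 in Ptpn11D61Y B vs. control B, with 16 of 35 genes above 0 (45.7%, against 50.6% of all genes). In control S vs. control B it was 0.11 with 24 above 0 (68.6%, against 46.8%), and in Ptpn11D61Y S vs. Ptpn11D61Y B 0.03 with 21 above 0. In Ptpn11D61Y S vs. control S it was -0.06 with 13 above 0 (37.1%, against 55.6%), and in the interaction -0.04 with 11 above 0 (31.4%, against 53.2%). The sign of the interaction changed where the replicate 1 arrays were left out or counted less: its median was 0.08 under array weights and 0.09 on replicates 2 and 3 only, each with 24 of 35 genes above 0. The values also move with the scaling of the arrays: with each array centred on its median, control S vs. control B gave 0.31 with 30 above 0 and Ptpn11D61Y S vs. control S gave -0.21 with 8 above 0, while the median of all clusters moved from -0.10 to 0.10 and from 0.06 to -0.09.

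Ptprb encodes VE-PTP, a receptor of the R3 class that is found on endothelial cells and acts on the angiopoietin receptor Tie2 and on VE-cadherin. Its log2 signal was 5.55, 6.11 and 5.99 in control B replicates 1 to 3 and 6.70, 6.04 and 6.69 in Ptpn11D61Y B. In S slices it was 6.41, 5.96 and 6.23 in control and 6.43, 6.29 and 6.73 in Ptpn11D61Y. The basal groups overlapped, because Ptpn11D61Y B replicate 2 lay below control B replicate 2, and the lowest value was that of control B replicate 1. The difference at rest was 0.60 ± 0.25 (standard error, n = 3 per group), a fold of 1.51, with a 95% interval of 0.05 to 1.14 and an adjusted p of 1 from limma. It fell short of the filter without control B replicate 1 (0.43), without Ptpn11D61Y B replicate 1 (0.48) or replicate 3 (0.49), and with replicates 2 and 3 alone (0.32). It also fell short under the test of the methods and with limma fitted to the 6 arrays of the comparison, where the p passed 0.05, and with centred arrays (0.575), array weights (0.54) or an offset of 16 (0.49). With the replicate number as a block it stayed past the filter, with a standard error of 0.22. In S slices the difference between genotypes was 0.28 ± 0.25, stimulation gave 0.32 ± 0.25 in control and 0.00 ± 0.25 in Ptpn11D61Y, and the interaction was -0.31 ± 0.35.

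Endothelial markers were read beside Ptprb. Of 6 such markers 5 were above 0 in Ptpn11D61Y B vs. control B, with a median of 0.29. Slco1a4, a transporter of the blood-brain barrier, passed the filter at 0.83 ± 0.38, and Tek, which encodes Tie2, differed by 0.85 without passing it. Cdh5, which encodes VE-cadherin, differed by -0.02. The summed signal of the 6 markers ranged from 9.59 to 10.71 on the log2 scale in control B and from 9.60 to 11.18 in Ptpn11D61Y B. In Ptpn11D61Y B replicate 1, where Ptprb was at its group's highest value of 6.70, the summed signal was at its group's lowest, as were 4 of the 6 markers. That low sum is not particular to this array. The sum was lowest in replicate 1 of every group, at 9.57 to 10.04 against 10.11 to 11.18 in the other 8 arrays. Slco1a4 was 6.44, 5.46 and 6.56 in Ptpn11D61Y B replicates 1 to 3, lowest in replicate 2 as Ptprb was. The part of the markers in the difference of Ptprb was not tested. The choroid plexus markers stood at 13.57 in Ptpn11D61Y B replicate 3, against 7.98 to 9.05 in the other 11 arrays, and that array was among those without which Ptprb missed the filter.

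**Figure D3:**
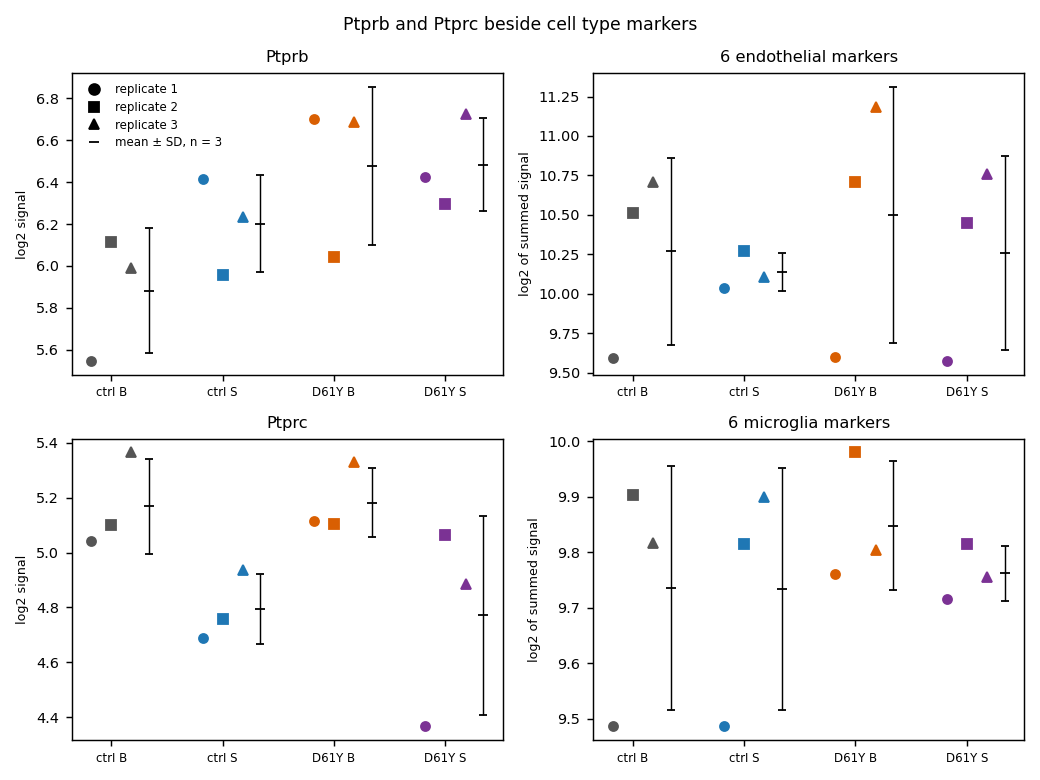
Log2 signal of Ptprb and Ptprc and log2 of the summed signal of 6 endothelial and 6 microglia markers in the 12 arrays, with symbols for the replicate number and the mean ± SD (n = 3) of each group beside them. Ptprb overlapped between the basal groups, and Ptprc lay lower in S than in B in each of the 6 animals, while the microglia markers overlapped between B and S.

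The other R3 receptors are Ptprh, Ptprj, Ptpro, Ptprq and Ptprv, of which Ptprj (DEP-1) is widely expressed, Ptpro is a receptor of podocytes and neurons and Ptprq belongs to the hair bundle of the inner ear. Their log2 fold changes ran from -0.17 (Ptprj, in S slices) to 0.17 between genotypes and from -0.36 (Ptprv, in control) to 0.23 (Ptpro, in control) for stimulation. None passed the filter, and the arrays of all compared groups overlapped in each.

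Ptprc encodes CD45, the receptor phosphatase of leukocytes, which microglia carry at a low level. The log2 signal was 5.04, 5.10 and 5.37 in control B and 4.69, 4.76 and 4.93 in control S. In Ptpn11D61Y it was 5.11, 5.10 and 5.33 in B and 4.37, 5.07 and 4.88 in S. Within each genotype all S arrays thus lay below all B arrays, and the signal is dim, near 5 throughout. The difference was -0.38 ± 0.25 in control and -0.41 ± 0.25 in Ptpn11D61Y, with adjusted p of 0.91 and 1 from limma, below the filter in both. In the test of the methods the unadjusted p was under 0.05 in control and not in Ptpn11D61Y. Taken animal by animal, S minus B was -0.35, -0.34 and -0.43 in control animals 1 to 3 and -0.75, -0.04 and -0.44 in Ptpn11D61Y animals, a mean of -0.39 ± 0.23 (SD, n = 6). Ptprc was the 1 gene of 35 with the same sign in all 6 animals (2.86%), which is fewer than the 7.88% of all genes. With the arrays centred the difference was -0.18 in control and -0.34 in Ptpn11D61Y. Of 6 microglia markers 4 were above 0 in control S vs. control B and 2 in Ptpn11D61Y S vs. Ptpn11D61Y B, and all 5 lymphocyte markers were below 0 in control S vs. control B and 3 in Ptpn11D61Y. Their part in the difference of Ptprc was not tested.

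Groups whose arrays did not overlap were seen in 0 to 3 of the 35 genes per comparison. In Ptpn11D61Y B vs. control B this held for 1 gene, Ptpn13, against 3.97% of all genes. In control S vs. control B it held for Ptpn9 and Ptprc, against 9.13%, and in Ptpn11D61Y S vs. Ptpn11D61Y B for Ptpn13, Ptpn22 and Ptprc, against 4.36%. In Ptpn11D61Y S vs. control S no gene had groups that did not overlap, against 5.83%. Ptpn9, Ptpn22, Ptpn23 and the CRE genes Ptprs and Ptpru are described gene by gene because of values seen first.

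Ptpn13 is a large cytosolic phosphatase with a FERM domain and PDZ domains. Its log2 signal was 5.88, 6.004 and 6.13 in control B and 6.29, 6.31 and 6.45 in Ptpn11D61Y B. It was 5.74, 6.13 and 5.86 in control S and 6.03, 6.19 and 6.25 in Ptpn11D61Y S. Every Ptpn11D61Y B array lay above every control B array, by 0.35 ± 0.18 on average (adjusted p = 1 from limma). In the test of the methods this difference had an unadjusted p under 0.05, with a fold below that of the filter. The difference was 0.33 with the arrays centred and 0.32 with replicates 2 and 3 alone. In S slices the genotypes differed by 0.25 ± 0.18 and overlapped, and stimulation gave -0.19 ± 0.18 in Ptpn11D61Y and -0.10 ± 0.18 in control.

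Ptpn21 belongs to the same FERM class. Its log2 signal was 6.11, 6.54 and 6.66 in control B, 6.06, 6.71 and 6.46 in control S, 6.66, 6.30 and 6.80 in Ptpn11D61Y B, and 6.10, 6.32 and 6.47 in Ptpn11D61Y S. The groups overlapped in all comparisons, and the difference of S to B was -0.29 ± 0.24 in Ptpn11D61Y and -0.03 ± 0.24 in control. The other FERM genes, Ptpn3, Ptpn4 and Ptpn14, of which Ptpn14 restrains the transcriptional co-activator YAP, differed by -0.14 to 0.22 in the 4 comparisons between groups.

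Ptpn1 and Ptpn2 encode PTP1B and TC-PTP, which act on the insulin receptor, on the leptin receptor pathway and on JAK kinases. Ptpn1 varied little between control arrays, at 7.25, 7.32 and 7.21 in B and 7.25, 7.27 and 7.22 in S. In Ptpn11D61Y it was 6.79, 7.37 and 7.41 in B and 6.76, 7.24 and 7.46 in S, so that replicate 1 was low in that genotype alone. The largest of its 4 group differences was -0.09 ± 0.22, and the intervals reached from -0.58 to 0.47. Ptpn2 differed by -0.06 to -0.04. Of 6 genes acted on by these phosphatases, Lepr, the leptin receptor, passed the filter at rest: its dim signal was 3.60, 3.76 and 3.83 in control B and 4.02, 4.42 and 5.19 in Ptpn11D61Y B, a difference of 0.82 ± 0.35 (adjusted p = 1 from limma). Its groups did not overlap, and the highest value was in the array with the high choroid plexus markers, whose part was not tested. The others, Insr, Igf1r, Jak1, Jak2 and Tyk2, lay between -0.18 and 0.23.

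Ptpn18 encodes a phosphatase of the PEST class, together with Ptpn12 (PTP-PEST, which acts on adhesion and cytoskeletal proteins) and the lymphocyte phosphatase Ptpn22. The log2 signal of Ptpn18 was 6.11, 5.35 and 5.87 in control B, 5.28, 5.29 and 5.36 in control S, 6.49, 5.45 and 5.24 in Ptpn11D61Y B, and 5.35, 5.60 and 5.64 in Ptpn11D61Y S. It was high in replicate 1 of both basal groups, unlike most of the 35 genes. Stimulation gave -0.47 ± 0.32 in control and -0.20 ± 0.32 in Ptpn11D61Y, and the interaction was 0.27 ± 0.45. With array weights, which count the replicate 1 arrays least, the interaction of Ptpn18 passed the filter at 0.64. Ptpn12 differed by -0.15 to 0.23, with the wide standard error of 0.55 that its low replicate 1 arrays give. Ptpn22 was higher in all Ptpn11D61Y S arrays (4.51, 4.66 and 4.41) than in Ptpn11D61Y B (4.34, 4.32 and 4.14), by 0.26 ± 0.30.

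Ptpn20, Ptpn9 and Ptpn23 are cytosolic phosphatases outside these classes. Ptpn20 was dim, at 4.11, 2.98 and 2.89 in control B, 3.09, 2.26 and 3.25 in control S, 2.79, 2.34 and 3.40 in Ptpn11D61Y B, and 3.77, 3.08 and 2.87 in Ptpn11D61Y S. Its groups overlapped, and its interaction of 0.86 ± 0.69 was the largest of the 35 in size and did not pass the filter. Ptpn9 (PTP-MEG2), a phosphatase of secretory vesicles, was 7.50, 7.72 and 7.67 in control B and 7.74, 7.89 and 7.91 in control S, a difference of 0.21 ± 0.23. In Ptpn11D61Y stimulation gave 0.05 ± 0.23. Ptpn23 (HD-PTP), which takes part in endosomal sorting, was 6.39, 7.80 and 8.24 in control B and 7.30, 8.13 and 8.25 in Ptpn11D61Y B. Each Ptpn11D61Y B array lay above the control B array with the same number, by 0.42 ± 0.52, and with the replicate number as a block the standard error was 0.17. The size stayed below the fold of the filter. The replicate number joins different animals in that comparison.

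Ptpn5 (STEP), Ptprr and Ptpn7 carry the kinase interaction motif through which they bind and dephosphorylate MAP kinases. Ptpn7, known from blood cells, was dim, with 5.58, 3.97 and 4.90 in control B, 4.34, 5.13 and 4.44 in control S, 6.17, 4.59 and 4.98 in Ptpn11D61Y B, and 4.21, 4.84 and 4.99 in Ptpn11D61Y S. Its groups overlapped, and its difference of -0.56 ± 0.48 between S and B in Ptpn11D61Y rested on replicate 1 and was 0.13 with replicates 2 and 3 alone. The log2 fold change of Ptpn5 was 0.13 ± 0.35 at rest between genotypes and 0.29 ± 0.35 in control S vs. control B, with 0.00 ± 0.35 in Ptpn11D61Y and an interaction of -0.28 ± 0.49. Ptprr differed by -0.12 ± 0.19 at rest and by 0.03 to 0.11 for stimulation. Of 4 measured targets of these phosphatases, Fyn, Grin2b, Mapk14 and Ptk2b, all were above 0 after stimulation in both genotypes, at 0.03 to 0.27, and none passed the filter.

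**Figure D4:**
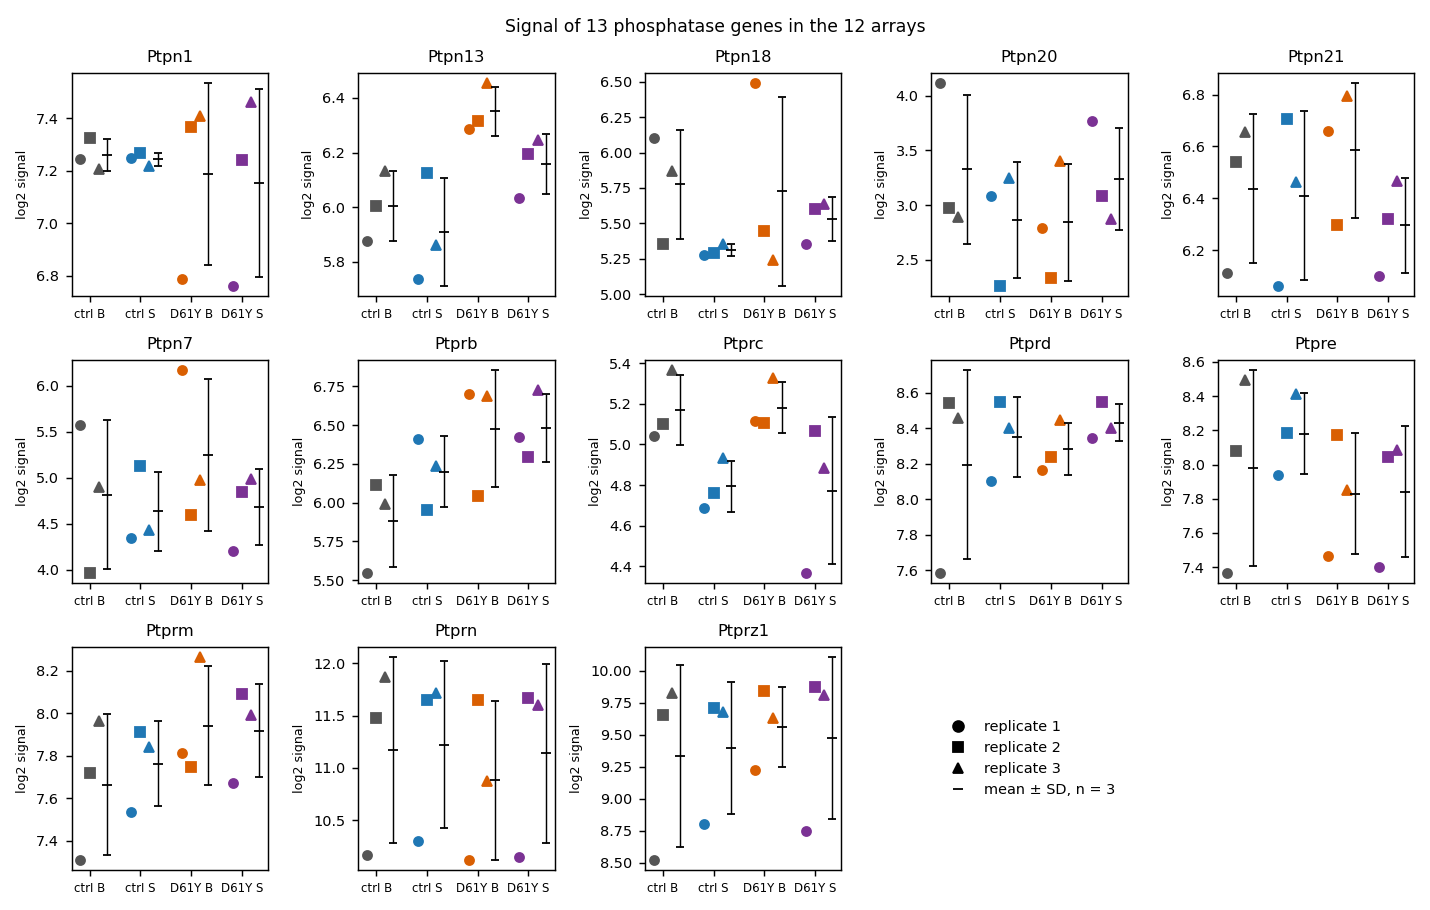
Log2 signal of 13 phosphatase genes in each of the 12 arrays, with symbols for the replicate number and the mean ± SD (n = 3) of each group beside them, on a scale of its own for each gene. Ptprn and Ptprz1 are lowest in the replicate 1 arrays of every group, while Ptpn18 and Ptpn7 are high there in basal slices.

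Ptprd, Ptprf and Ptprs are the LAR type receptors, which bind liprins inside the axon. Ligands of the class across the synapse include Slitrk, IL1RAPL1 and TrkC proteins, which do not each bind every member. The log2 signal of Ptprd was 7.58, 8.54 and 8.46 in control B, 8.10, 8.55 and 8.40 in control S, 8.16, 8.24 and 8.45 in Ptpn11D61Y B, and 8.35, 8.55 and 8.40 in Ptpn11D61Y S. Control B replicate 1 was the low value, and the groups overlapped. Stimulation gave 0.15 ± 0.25 in each genotype. Ptprs, which holds a CRE in a promoter window, was 9.45, 10.61 and 11.08 in control B and 9.95, 10.88 and 10.89 in control S. In Ptpn11D61Y it was 9.65, 10.85 and 10.11 in B and 9.53, 10.83 and 10.82 in S. Stimulation gave 0.19 ± 0.52 in both genotypes for Ptprs and for Ptprf 0.07 ± 0.33 in control and 0.13 ± 0.33 in Ptpn11D61Y. Of 17 ligands and liprins, 16 were above 0 in control S vs. control B with a median of 0.18 and 10 in Ptpn11D61Y S vs. Ptpn11D61Y B with a median of 0.06, and none passed the filter in any comparison. The 7 excitatory neuron markers were all above 0 in these comparisons, with medians of 0.31 in each, and their part in these shifts was not tested.

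Ptprk, Ptprm and Ptpru are receptors that bind the same molecule on a neighbouring cell. Ptprm was 7.31, 7.72 and 7.96 in control B, 7.54, 7.91 and 7.84 in control S, 7.82, 7.75 and 8.27 in Ptpn11D61Y B, and 7.67, 8.09 and 7.99 in Ptpn11D61Y S. The basal groups overlapped at a difference of 0.28 ± 0.23. Ptpru, which also holds a CRE in a promoter window, was 7.53, 8.11 and 8.69 in control B and 7.92, 8.55 and 8.31 in control S, and 7.58, 8.30 and 7.74 in Ptpn11D61Y B and 7.73, 8.17 and 8.22 in Ptpn11D61Y S. Stimulation gave 0.15 ± 0.31 in control and 0.16 ± 0.31 in Ptpn11D61Y, within the spread of the arrays. Ptprk differed by -0.15 to 0.18.

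Ptpra and Ptpre form the R4 class with short extracellular parts, and Ptpra is known to activate Src kinases. Ptpre was 7.37, 8.08 and 8.50 in control B, 7.94, 8.18 and 8.42 in control S, 7.47, 8.18 and 7.85 in Ptpn11D61Y B, and 7.40, 8.04 and 8.08 in Ptpn11D61Y S. Its difference of -0.34 ± 0.31 in Ptpn11D61Y S vs. control S came with overlapping groups. Ptpra differed by -0.10 to 0.13.

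Ptprz1 and Ptprg carry a carbonic anhydrase-like domain that binds contactins, and Ptprz1, a receptor of glia and their precursors, also binds pleiotrophin. The log2 signal of Ptprz1 was 8.52, 9.66 and 9.83 in control B, 8.80, 9.71 and 9.68 in control S, 9.22, 9.84 and 9.63 in Ptpn11D61Y B, and 8.75, 9.87 and 9.81 in Ptpn11D61Y S. At rest it differed by 0.23 ± 0.42, and control B replicate 1 was the lowest value. The 4 markers of oligodendrocyte precursors were all above 0 at rest, with Pdgfra past the filter at 0.75 ± 0.18. So were all 4 oligodendrocyte markers, 2 of them past the filter, and 5 of 6 astrocyte markers, with none past it. The part of these glial markers in the value of Ptprz1 was not tested. Ptprg differed by -0.15 to 0.19. Of 9 ligands and contactins, 6 were above 0 at rest, 7 in control S vs. control B, 6 in Ptpn11D61Y S vs. Ptpn11D61Y B and 5 in Ptpn11D61Y S vs. control S, with none past the filter.

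Ptprn (IA-2) and Ptprn2 are receptors of the secretory granule membrane that lack ordinary phosphatase activity. Ptprn was 10.17, 11.47 and 11.87 in control B, 10.30, 11.65 and 11.72 in control S, 10.12, 11.65 and 10.87 in Ptpn11D61Y B, and 10.15, 11.66 and 11.60 in Ptpn11D61Y S. It had the largest distance of replicate 1 among the 35 genes, and Ptpn11D61Y B replicate 3 lay between replicate 1 and the others. The excitatory neuron markers in that array, at 13.37, also lay between those of Ptpn11D61Y B replicates 1 and 2, at 12.89 and 14.18. It is also the array with the high choroid plexus markers. The part of these markers in the value of Ptprn was not tested. The difference at rest was -0.29 ± 0.63, with a 95% interval of -1.66 to 1.09, and in S slices -0.08 ± 0.63. Ptprn2 differed by -0.13 to 0.19.

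Other phosphatases of the superfamily, including Dusp, Cdc25, Eya and Ptp4a genes, were read for comparison. Of 21 such genes 11 were above 0 at rest, 14 in control S vs. control B, 13 in Ptpn11D61Y S vs. Ptpn11D61Y B and 10 in Ptpn11D61Y S vs. control S, and none passed the filter. Ptpn11 itself differed by -0.09 ± 0.20 at rest and -0.05 ± 0.20 in S slices, and Ptpn6 by 0.13 ± 0.21 and 0.03 ± 0.21; the array reads the transcript and not the D61Y codon. The difference between the genotypes in their response to stimulation was tested for each of the 35 genes, and none passed the filter.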

How the data were processed

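Signal intensity values of 12 arrays were deposited on a linear scale. According to the methods, the authors corrected the background and summarised probes with PLIER under quantile normalization. Values were taken to log2 with a floor of 1, under which 2.89% lay. Symbols came from the platform annotation, with 1 symbol for 23521 clusters, several for 1820 and none for 16004. limma 3.58.1 in R 4.3.3 was fitted on all clusters and 12 arrays, with 1 coefficient per group, a variance trend and 8 residual degrees of freedom. Log2 fold changes are first minus second group, adjusted by the Benjamini-Hochberg method over 41345 clusters. The code was tested on simulated data.

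Per the labels, B and S arrays of 1 genotype carry the same animal numbers, and those with the same number were taken as 1 animal. Their residuals correlated at 0.05, -0.01 and 0.04 in control and at 0.55, 0.39 and 0.19 in Ptpn11D61Y. Arrays with the same number from different animals correlated at 0.56, 0.36 and 0.19 between control B and Ptpn11D61Y B. Between control S and Ptpn11D61Y S the values were 0.12, 0.04 and 0.18. Per the methods, several slices of an animal shared a chamber. The members, gene lists and tests were chosen with earlier results of these data known. By rule, all 12 values are given for genes past the filter, the 2 of smallest p per comparison and the 1 of smallest p per structural class, which made 13 genes. Outside this rule, Ptprs and Ptpru are given in full and Ptpn9, Ptpn22 and Ptpn23 in part, because of values seen first. Alternatives were other tests and variance priors, scalings, an offset of 16, a dim filter, blocks, array weights and arrays left out.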

Additional observations from a re-analysis of the deposited data

How the results depend on the processing

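The count of 1 phosphatase gene past the filter in Ptpn11D61Y B vs. control B was 0 with centred arrays, with limma fitted to the 6 arrays of the comparison, under the test of the methods, with an offset of 16, replicates 2 and 3 alone and array weights, and 0 to 1 with each of the 6 arrays left out in turn (0 without 3 of them). It was 1 with the replicate block, which left the 4 other counts at 0. Ptprb, the gene concerned, ranged from 0.32 to 0.81 over these settings. The interaction gave a count of 1 with array weights, where the main value is 0, and that gene was Ptpn18. The causes were not tested. Of 91 such counts under alternatives, 81 were the same. Single-gene values under alternatives were counted for the 13 genes picked by the filter or by smallest p, and not for all 35. Of these 1168 values, 149 changed sign, none of them past the filter on either side. The largest main difference among these was 0.56 in size. The median over the 35 genes changed sign in 18 of 91 values and moved by at most 0.24. Keeping the cluster with the lowest mean gave no other value, because each gene has 1 cluster. Signal over background is low for Ptpn7, Ptpn20, Ptpn22, Ptprc and Ptprq.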
